A study of Mus musculus with 4 samples.

Results

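The genes described here encode the hemidesmosome, the junction that fixes epithelial cells to the basement membrane, and the anchoring fibrils beneath it. They are 9 of the 56748 genes in the deposited count table: Col7a1, Col17a1, Lama3, Lamb3, Itga6, Itgb4, Plec, Dst and Cd151. They were taken by gene symbol, and all 9 were found. The set was proposed with earlier results of the p53-/- against p53+/+ contrast in view, so the differences of its members in these same libraries are given as descriptions and not as tests. There were 4 libraries from the small intestine (SI), 2 of p53+/+ and 2 of p53-/- mice, all collected 1 day after 12 Gy of total-body irradiation (TBI) from a caesium source. The p53+/+ mice are labelled WT. The p53-/- mice are deficient in p53 in all tissues and not only in the epithelium. The mice were matched for age and gender per the study's methods, and no unirradiated SI was analysed here, so no value below is a response to TBI. The p53+/+ libraries are called 7 and 8 and the p53-/- libraries 9 and 10, after the columns of the table.

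In a hemidesmosome, the integrin α6β4 (Itga6 and Itgb4) binds laminin-332 outside the cell and plectin (Plec) inside it, and plectin holds the keratin filaments. Lama3 and Lamb3 encode chains of laminin-332. Cd151 is a tetraspanin that associates with laminin-binding integrins. Stratified epithelia such as skin build type I hemidesmosomes, which also hold the collagen BP180 (Col17a1) and the plakin BP230 (an isoform from Dst), with anchoring fibrils of type VII collagen (Col7a1) below. Simple epithelia such as that of the gut build type II hemidesmosomes, which rest on α6β4 and plectin.

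Several measures set the libraries apart before any gene of the set is considered. Trp53 was measured at 57.7 and 47.1 CPM (counts relative to the library's TMM-scaled total) in p53+/+ against 19.8 and 22.5 CPM in p53-/-, so reads of the targeted gene were fewer but not absent. Its log2 fold change was -1.31, with a standard error of 0.188 and an adjusted p of 0.0602 by the quasi-likelihood (QL) test of edgeR. The known p53 target Phlda3 fell by 5.68 on the log2 scale (adjusted p = 0.00566, edgeR QL test), and 5 of 8 p53 targets listed as controls passed the threshold (0 without library 10, where no gene passed). Totals lay between 15005479 and 22173164 counts. Library 10 stood apart by its B cell follicle markers, at 491 CPM in sum against 1.11 to 23.3 CPM in the other libraries, and by a share of 4.59% of counts on an 18S ribosomal RNA gene against 0.296 to 0.863%. Library 7 had the lowest sum of 8 fibroblast markers, at 160 CPM against 585 to 812 CPM. Among them Pdgfrb went otherwise, at 27.1 CPM in library 7 against 22.8 and 22.2 CPM in libraries 9 and 10. Library 8 had the highest sum of 8 smooth muscle markers, at 4895 CPM against 528 to 1108 CPM. The 12 markers of intestinal epithelium summed to 27120 and 19600 CPM in p53+/+ and to 18270 and 15240 CPM in p53-/-, with a median log2 fold change of -0.46 (-0.15 without library 7), and 0 of the 12 passed the threshold with edgeR (2 had an unadjusted p under 0.05). Sums of other lists separated by genotype. The 8 crypt base markers summed to 6341 and 4182 CPM in p53+/+ and to 7542 and 9129 CPM in p53-/-. Lyz1 made up most of these sums, at 5999 and 3929 against 6593 and 8140 CPM. Of the 8, 6 had positive log2 fold changes, and Ascl2 (-0.82) and Axin2 (-0.24) negative ones. The largest was that of Olfm4, at 47.6 and 16.0 CPM in p53+/+ against 473 and 525 CPM in p53-/- (log2 fold change 3.97). The 8 T cell markers summed to 8.11 and 15.3 against 69.3 and 128 CPM. The 8 adipocyte markers summed to 157 and 125 against 27.7 and 21.8 CPM, with Cfd and Car3 called lower. The part of these shifts in the differences below was not tested beyond the values given. In whole tissue, fewer cells of a type and less RNA per cell cannot be told apart.

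The tissue expressed Itga6, Itgb4 and Plec, the components of a type II hemidesmosome, while Col17a1 was at 3 counts or fewer and Col7a1 at 56 counts or fewer in every library. To compare genes with each other, CPM was divided by the length of the union of a gene's exons, giving CPM per kilobase. In the p53+/+ libraries, Cd151 was highest at 68.4 ± 3.95 CPM per kilobase (SD, n = 2). Itgb4 at 51.5 ± 2.01, Plec at 49.9 ± 4.13 and Lamb3 at 49.6 ± 6.20 CPM per kilobase followed, and their libraries overlapped, so these 3 had no order. Itga6 lay below them at 34.0 ± 7.14 CPM per kilobase, and Lama3 at 12.4 ± 1.37. Dst reached 2.18 ± 0.281 CPM per kilobase of all its annotated exons, which join epithelial, muscle and neuronal isoforms that a gene count does not separate, so the level of the BP230 isoform is not known from these data. Col7a1 was at 0.226 ± 0.0729 CPM per kilobase. Col17a1 had 1 count in each p53+/+ library and 3 counts in each p53-/- library, at or under the floor of 3 counts used here, so no fold is given. The order of Itgb4, Lamb3, Itga6, Plec and Cd151 depends on the length used, since with the longest annotated transcript as length the mean over all 4 libraries was highest for Cd151 at 82.3 CPM per kilobase, followed by Itga6 at 68.8, Plec at 55.3, Lamb3 at 53.9 and Itgb4 at 42.4.

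In the p53-/- libraries the order of the same levels per length was different. Cd151 was at 43.5 ± 1.73 CPM per kilobase and Plec at 44.4 ± 12.1, with Itga6 at 31.8 ± 8.40, Lamb3 at 29.7 ± 11.1 and Itgb4 at 23.5 ± 8.10 (SD, n = 2). The ranges of Plec, Itga6 and Lamb3 over the 2 libraries overlapped each other. Within each p53-/- library they stood in that order, with Itga6 at 37.7 and Lamb3 at 37.6 CPM per kilobase in library 9. Itgb4, level with Plec in the p53+/+ SI, lay below Plec in each p53-/- library. Lama3 was at 5.78 ± 2.53 CPM per kilobase, below Itgb4 in both p53-/- libraries.

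Markers of stratified epithelium were examined beside these levels. Of 14 squamous markers, Krt6a and Sprr1b were at 0 in every library and Trp63, the defining transcription factor, had 2 counts in library 9 and 0 in the others. Krt5 had 5 and 4 counts in p53+/+ and 0 in both p53-/- libraries. The list summed to 16.1 and 12.5 CPM in the p53+/+ SI and to 5.08 and 3.88 CPM in the p53-/- SI. Krt15 was the largest in p53+/+, at 119 and 101 counts (7.36 and 6.55 CPM) against 8 and 13 counts in p53-/-. Of 5 tested, 4 had negative log2 fold changes. The 1 positive was Krt10, the largest in p53-/-, at 37 and 29 against 65 and 37 counts (log2 fold change 0.17), and its genotypes overlapped.

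**Figure D1:**
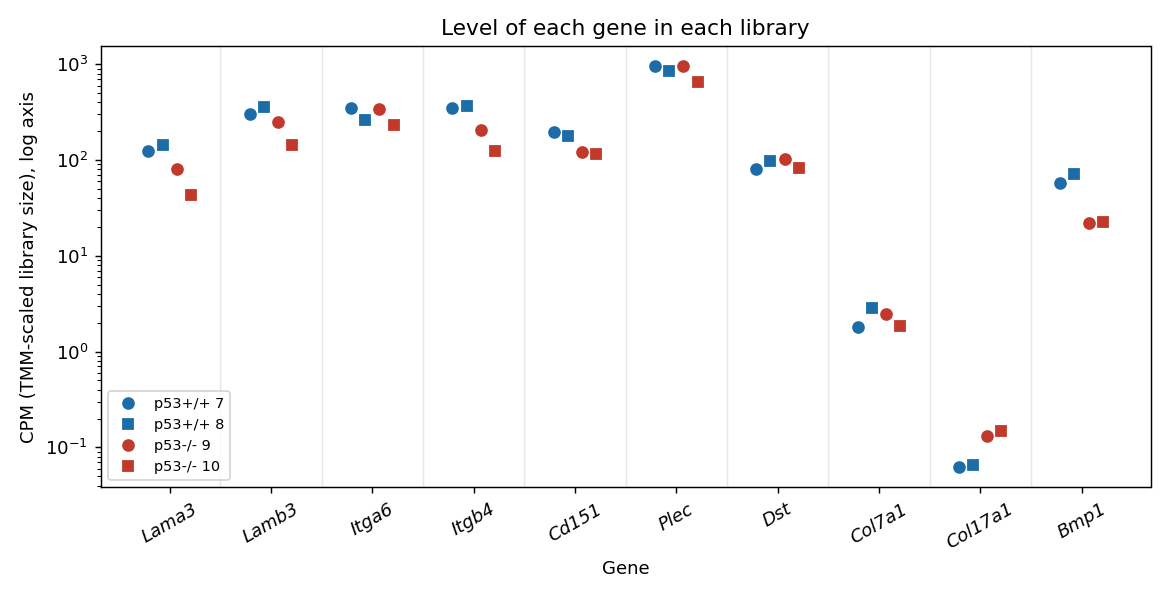
Level of the 9 hemidesmosome and anchoring fibril genes and Bmp1 in each library, as CPM on TMM-scaled library sizes on a log axis, with blue for p53+/+ and red for p53-/-. Both red points lie below both blue points for Lama3, Lamb3, Itgb4, Cd151 and Bmp1, and Col17a1 rests on 1 to 3 counts.

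Between genotypes, 4 of the 8 members tested (Itgb4, Lama3, Lamb3 and Cd151) were lower in both p53-/- libraries than in both p53+/+ libraries, where 24.4% of all 16094 genes tested were, and none was higher in both, where 26.4% of all genes were. No member passed the threshold, which was an adjusted p under 0.05 in the edgeR QL test of all genes. That threshold was passed by 0.491% of all genes, with 0.193% lower and 0.298% higher. An unadjusted p under 0.05 was given to 3 members (Itgb4, Lama3 and Cd151), beside 2892 of the 16094 genes. With DESeq2 the same 3 members were called lower, beside 4.47% of all genes. The edgeR likelihood ratio test called Itgb4 and Lama3 lower, beside 2.87%, and the QL test without a filter on low counts called Itgb4, Lama3 and Lamb3 lower, beside 2.73%. Since the set was chosen on this contrast, these counts are given beside the background and nothing is read from them. The median log2 fold change of the 8 members was -0.41, beside -0.0084 for all genes tested and -0.46 for the epithelial markers.

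Among the integrins, Itgb4 encodes the β4 chain of α6β4. It was at 351 and 371 CPM in p53+/+ and at 205 and 125 CPM in libraries 9 and 10. All p53-/- values lay below all p53+/+ values, and the gap between the genotypes exceeded the spread within either of them. The log2 fold change was -1.13 (standard error 0.283), -0.76 without library 10 and -1.54 without library 9. Itga6, whose α6 chain pairs with β4 and also with β1, was at 352 and 261 CPM in p53+/+ and at 340 and 233 CPM in p53-/-. The genotypes overlapped, and the log2 fold change was -0.10 (standard error 0.276). Cd151 was at 195 and 180 CPM in p53+/+ and at 123 and 116 CPM in p53-/-, the closest p53-/- pair among the members tested. Its log2 fold change was -0.65 (standard error 0.167), and it lay between -0.72 and -0.56 when any library was left out.

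The ratio of counts of 2 genes within a library does not depend on how libraries are scaled to each other, and it was used to set partner chains side by side. Itgb4 over Itga6 was 0.998 and 1.42 in p53+/+ and 0.603 and 0.536 in p53-/-. Both p53-/- ratios were lower, by 1.07 on average on the log2 scale (log2 difference -1.07). Itgb4 over Plec gave the same order, with 0.367 and 0.436 against 0.214 and 0.192. Itga6 over Plec, in contrast, lay between 0.307 and 0.368 in all 4 libraries and the genotypes overlapped. Cd151 over Itga6 was 0.555 and 0.689 in p53+/+ and 0.361 and 0.498 in p53-/-. Itga3, the chain of another laminin receptor, over Itga6 was 0.792 and 1.075 in p53+/+ and 0.630 and 0.661 in p53-/-. Lower ratios against Itga6 were thus not particular to Itgb4 and Cd151. The share of all gene pairs whose ratios separate by genotype was not computed.

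Of the laminin-332 chains, Lama3 encodes the α3 chain that carries the integrin-binding domain, and was at 123 and 144 CPM in p53+/+ and at 81.4 and 42.9 CPM in libraries 9 and 10. Lamb3, the β3 chain, was at 299 and 357 CPM in p53+/+ and at 248 and 145 CPM in p53-/-. For both genes the p53-/- libraries lay below the p53+/+ libraries, and library 10 was the lowest. The log2 fold change of Lama3 was -1.10 (standard error 0.325), -0.67 without library 10 and -1.64 without library 9. That of Lamb3 was -0.74 (standard error 0.305), -0.35 without library 10 and -1.19 without library 9.

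Within a library, Lama3 over Lamb3 was 0.412 and 0.403 in p53+/+ and 0.328 and 0.297 in p53-/-. Both p53-/- ratios were below both p53+/+ ratios, with close pairs and a log2 difference of -0.39 between the means. Itgb4 over Lamb3, the integrin chain against a chain of its ligand, was 1.18 and 1.04 in p53+/+ and 0.827 and 0.863 in p53-/-, again without overlap. Here too, the share of all gene pairs whose ratios separate was not computed, so nothing is read from these separations.

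**Figure D2:**
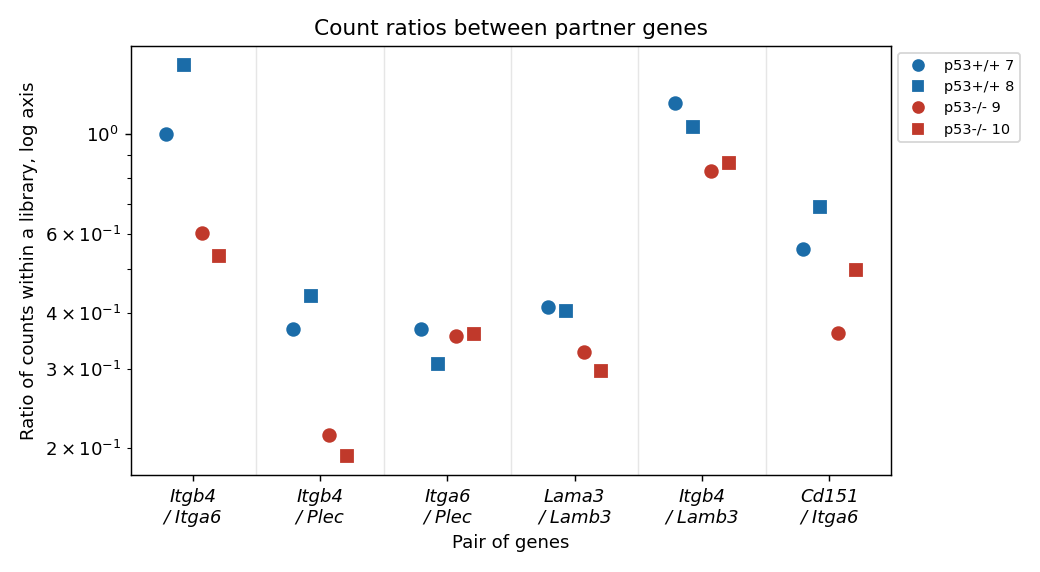
Ratio of the counts of 2 genes within each library, on a log axis, with blue for p53+/+ and red for p53-/-. Itgb4 over Itga6 is 0.998 and 1.42 in p53+/+ against 0.603 and 0.536 in p53-/-, while Itga6 over Plec overlaps between the genotypes.

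Promoter windows of 5 of the 9 members were found by symbol in a RefSeq table on build GRCm38.p6, each spanning 250 bases before to 50 bases after a transcription start. The windows of Cd151 and Lamb3 are shown because both genes were lower in each p53-/- library. In the Cd151 window, at chr7:141467112-141467411 on the plus strand, capitals mark 1 match to the p53 consensus half-site, a decamer, at bases 201 to 210, and 2 GC boxes (GGGCGG). The Lamb3 window, at chr1:193301744-193302043 on the plus strand, held no match and has no capitals.
Cd151: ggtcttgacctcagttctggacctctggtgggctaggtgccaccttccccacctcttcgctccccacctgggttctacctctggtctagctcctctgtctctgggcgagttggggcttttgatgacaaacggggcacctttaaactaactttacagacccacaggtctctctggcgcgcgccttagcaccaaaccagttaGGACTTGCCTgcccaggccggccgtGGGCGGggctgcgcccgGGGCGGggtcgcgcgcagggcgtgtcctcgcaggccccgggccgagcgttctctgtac
Lamb3: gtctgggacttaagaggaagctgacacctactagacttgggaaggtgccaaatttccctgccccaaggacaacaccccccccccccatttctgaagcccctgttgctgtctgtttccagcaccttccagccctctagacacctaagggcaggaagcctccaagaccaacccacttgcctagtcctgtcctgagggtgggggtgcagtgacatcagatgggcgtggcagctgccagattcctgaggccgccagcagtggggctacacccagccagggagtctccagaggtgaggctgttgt

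The motifs searched on both strands were the p53 consensus half-site, the full p53 site of 2 half-sites with at most 13 bases between them, the GC box GGGCGG, the TATA box TATAAA and the AP-1 site TGANTCA. Of 32851 windows of the same length in the table, 8.36% held a p53 half-site, 0.0731% a full site, 35.7% a GC box, 13.6% a TATA box and 7.81% an AP-1 site. None of the 8 windows of these members held a full site or an AP-1 site, and the second windows of Cd151, Dst and Lamb3 held none of the 5 motifs. A half-site and 2 TATA boxes also lay in the window of Col17a1, which had 3 counts or fewer in every library. The window of Col7a1 held 1 GC box and the first window of Dst 4. These matches describe letters in a window and not binding.

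The plakins Plec and Dst did not separate by genotype. Plec, which links α6β4 to keratin, was at 957 and 851 CPM in p53+/+ and at 960 and 650 CPM in p53-/-. Its log2 fold change was -0.17 (standard error 0.283) and 0.14 without library 10. Dst was at 81.6 and 97.9 CPM in p53+/+ and at 102 and 83.0 CPM in p53-/-, and its log2 fold change was 0.04 (standard error 0.189). Isoforms of Plec, Dst and Itga6 were not resolved. The anchoring fibril gene Col7a1 rested on 29 and 44 counts in p53+/+ and 56 and 37 in p53-/-, or 1.80, 2.86, 2.45 and 1.84 CPM. Its genotypes overlapped, and its log2 fold change of -0.11 (standard error 0.499) was positive when library 8 or library 10 was left out (0.25 and 0.12).

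**Figure D3:**
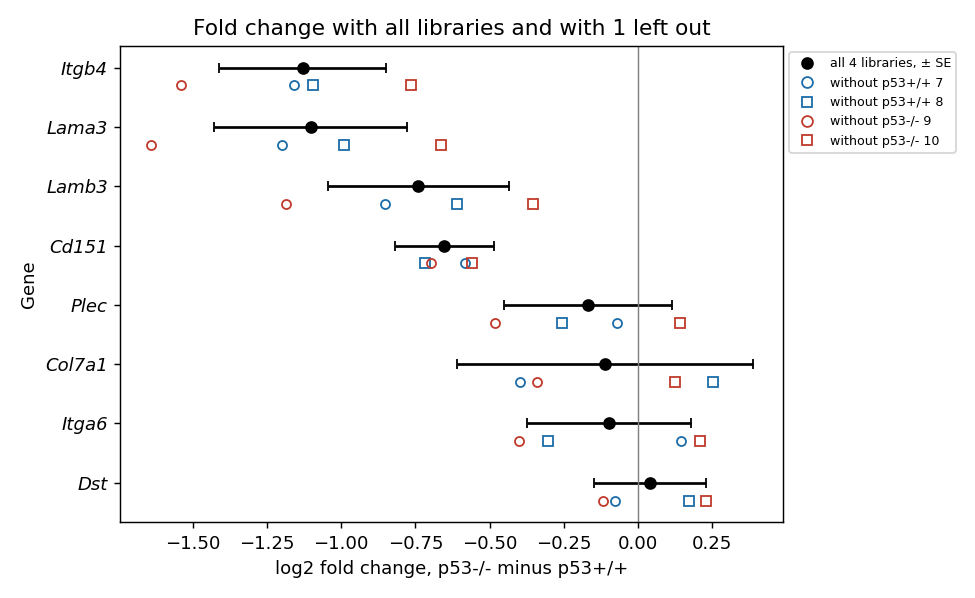
Log2 fold change of p53-/- against p53+/+ for the 8 members tested, with bars of 1 standard error for all 4 libraries, and open symbols for the fit with 1 library left out. Itgb4, Lama3, Lamb3 and Cd151, whose genotypes do not overlap, stay negative whichever library is left out, which that separation makes likely. Plec, Col7a1, Itga6 and Dst change sign.

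The 2 p53-/- libraries differed from each other in most of these genes. The ratio of library 9 to library 10 in CPM was 1.90 for Lama3, 1.72 for Lamb3, 1.64 for Itgb4, 1.48 for Plec, 1.46 for Itga6 and 1.22 for Dst, beside a median of 0.993 over all genes tested. The ratio was 1.33 for Col7a1, on 56 and 37 counts, and 1.06 for Cd151, the shortest of the set. Among protein-coding genes the median of this ratio rose with exon length, from 0.870 for genes of up to 2000 bases to 1.07 for genes above 8000 bases, and the median log2 fold change went from -0.08 to 0.03. The members at 1.46 and above thus exceeded the median of every length class, but the spread within a class was not examined. Such ratios were not particular to the set. Among related genes Dsp was at 1.72, Evpl at 1.60 and Dsg2 at 1.53, while Pkp2 was at 1.15 and Krt18 at 0.939. The part of the B cell and 18S ribosomal RNA counts of library 10 in this spread was not tested.

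Because 11 of the 12 epithelial markers had negative log2 fold changes, the members were also expressed against the mean log2 CPM of those markers in the same library. On this scale Itgb4 was at -2.05 and -1.52 in p53+/+ and at -2.26 and -2.79 in p53-/-, a difference of -0.74 between the means. Lama3 was at -3.57 and -2.88 in p53+/+ and at -3.60 and -4.33 in p53-/-, also a difference of -0.74. For both, the p53-/- libraries remained below the p53+/+ libraries, for Lama3 by a small gap between library 7 and library 9. Lamb3 (-2.29 and -1.57 against -1.99 and -2.58) and Cd151 (-2.90 and -2.56 against -3.01 and -2.89) overlapped once set against the markers. Itga6 lay the other way, at -2.05 and -2.02 in p53+/+ and -1.54 and -1.89 in p53-/-. Dst was at -4.16 and -3.44 in p53+/+ and at -3.28 and -3.38 in p53-/-, above by a small gap between library 8 and library 10. The marker mean itself differed by -0.43 between the genotypes, which shifts every gene upward in p53-/- on this scale. The share of all genes that separate on this scale was not computed.

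**Figure D4:**
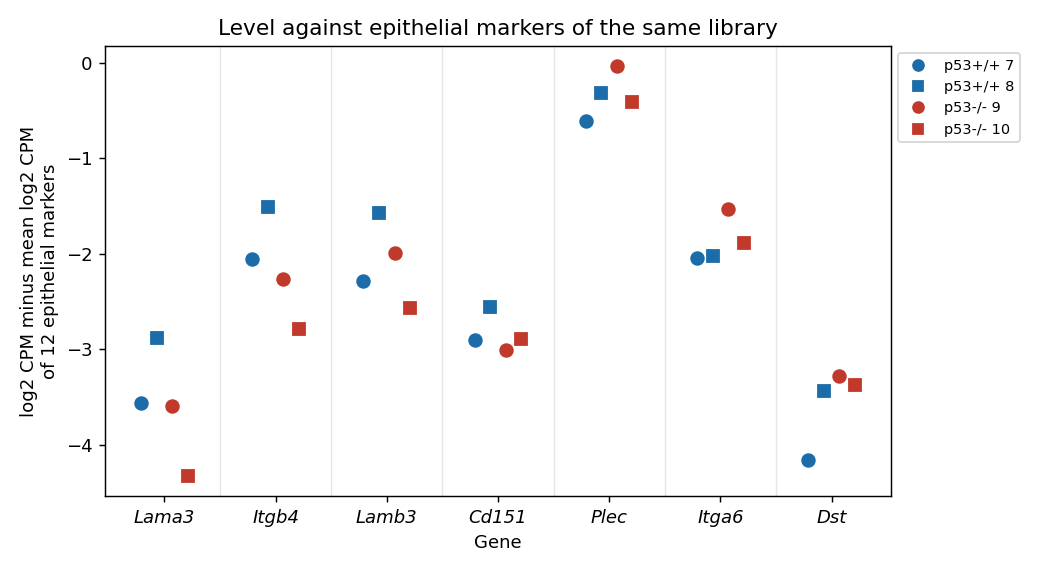
Log2 CPM of each gene minus the mean log2 CPM of 12 epithelial markers in the same library, with blue for p53+/+ and red for p53-/-. The red points lie below the blue ones for Lama3 and Itgb4, overlap them for Lamb3, Cd151 and Plec, and lie above them for Itga6 and Dst.

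Profiles over the 4 libraries were compared by the Euclidean distance between log2 CPM values centred on each gene's mean, as a description over 4 points that share the library effects above. Within the set, Lama3 and Itgb4 were nearest to each other (distance 0.177), followed by Itga6 and Plec (0.205) and by Col7a1 and Dst (0.303). Lamb3 lay at 0.398 from Lama3 and at 0.409 from Itgb4. Among 13172 other genes of average log2 CPM of at least 1, the nearest to Itgb4 were Odad1 (0.115), Gsdme (0.145) and Dgkq (0.154). Gsdme, a gasdermin, was at 307 and 335 CPM in p53+/+ and at 176 and 122 CPM in p53-/-. The nearest to Lamb3 were Aph1b (0.0955), Hoxb5 (0.102) and Ret (0.122), and to Col7a1 Plcb1 (0.0505), Map4k5 (0.0645) and Bag3 (0.0650).

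Related genes were described from 9 lists of 86 genes, of which 78 were tested. They were 8 lists of adhesion genes and 1 of Trp53, Trp63 and Trp73. In the edgeR QL test 1 of them, Bmp1, passed the threshold, and 12 had an unadjusted p under 0.05, Trp53 among them. Bmp1, the protease that trims procollagen VII and laminin-332 chains outside the cell, was at 57.6 and 72.0 CPM in p53+/+ and at 22.1 and 22.4 CPM in p53-/-. It fell by 1.54 on the log2 scale (standard error 0.178, edgeR QL test adjusted p = 0.0483), and the p53-/- pair was close. The adjusted p ranged from 1.73e-09 to 0.422 over 14 alternatives, of which 6 kept the call, and the log2 fold change from -1.69 to -1.38. Against the epithelial markers Bmp1 was also lower in both p53-/- libraries, by 1.10 between the means (log2 difference -1.10). In the same list of 10 processing and crosslinking genes, Plod2, a lysyl hydroxylase that modifies collagen, was at 21.1 and 33.2 CPM in p53+/+ and at 4.87 and 3.58 CPM in p53-/- (log2 fold change -2.68, edgeR QL test adjusted p = 0.0560, and 3.21e-12 to 0.423 over the alternatives). The other 8 genes of the list gave 5 positive and 3 negative log2 fold changes.

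Of 8 other laminin chains, 0 passed the threshold with edgeR and 0 had an unadjusted p under 0.05, and their median log2 fold change was 0.28, -0.39 without library 7 and 1.66 without library 8. Lamb2 was at 6.25, 28.4, 14.4 and 11.0 CPM and Lama2 at 0.495, 3.05, 3.42 and 1.64 CPM in libraries 7 to 10, with log2 fold changes of -0.44 and 0.52 that changed sign when a library was left out. Both were lowest in library 7, as the sum of the fibroblast markers was. Of 17 other basement membrane genes, 14 were tested and 0 called (0 with an unadjusted p under 0.05), and the median log2 fold change was 0.10, -0.37 without library 7 and 1.45 without library 8. The largest differences there were those of the collagen IV chains Col4a6 and Col4a5, at 1.36 and 0.96, and were 0.37 and 0.07 without library 7, where Col4a6 had 0 counts and Col4a5 6. Without library 8 they were 8.81 and 3.94 and both passed the threshold (edgeR QL test adjusted p = 0.0197 and 0.0184, and up to 0.959 over the alternatives).

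Among 7 other laminin receptors, 6 had negative log2 fold changes and 0 passed the threshold with edgeR (3 had an unadjusted p under 0.05). The median log2 fold change was -0.31, -0.60 without library 7 and -0.10 without library 8. Bcam, a receptor for the laminin α5 chain, was at 16.5 and 24.7 CPM in p53+/+ and at 13.1 and 11.9 CPM in p53-/- (log2 fold change -0.72, edgeR QL test adjusted p = 0.274). Itga7, a muscle integrin, was at 2.66 and 13.7 CPM against 4.91 and 3.38 CPM (log2 fold change -0.98). Itga3, named here after its values were seen because α3β1 also binds laminin-332, was at 279 and 281 CPM in p53+/+ and at 215 and 154 CPM in p53-/- (log2 fold change -0.60, edgeR QL test adjusted p = 0.255). Itga2, also named after its values were seen, was the 1 positive receptor, at 37.7 and 34.5 CPM in p53+/+ and at 67.3 and 51.2 CPM in p53-/- (log2 fold change 0.72, edgeR QL test adjusted p = 0.159). The 9 other matrix integrins gave 0 calls (0 with an unadjusted p under 0.05) and a median of 0.06, which was -0.27 without library 7 and 1.85 without library 8. Itga5 was at -0.85, with -1.71 and 1.59 without library 7 and library 8, and Itga11 at 0.78, with 0.12 and 2.04.

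Genes of the keratin cytoskeleton and of desmosomes, the junctions between cells, had mostly negative log2 fold changes and no call in the edgeR QL test. DESeq2 called Krt19 lower (adjusted p = 0.0142, and 0.0142 to 0.915 over its alternatives), and the QL test without a filter called Dsp lower (adjusted p = 0.0458, and 0.0458 to 0.921). Of 9 other cytolinkers and keratins 7 had negative log2 fold changes, with a median of -0.28, 0 calls and 0 unadjusted p under 0.05 with edgeR. Krt19, a keratin of simple epithelium that is also among the epithelial markers, was at 2696 and 2115 CPM against 1625 and 1360 CPM (log2 fold change -0.69), and Ppl, a plakin, at 19.3 and 15.3 CPM against 14.1 and 9.20 CPM (log2 fold change -0.56, -0.91 without library 9 and -0.23 without library 10). Of 11 desmosome genes tested, 10 had negative log2 fold changes, with a median of -0.41, 0 calls and 0 unadjusted p under 0.05. Desmoplakin, Dsp, was at 1133 and 698 CPM in p53+/+ and at 629 and 365 CPM in p53-/- (log2 fold change -0.88, -0.48 without library 7 or library 10 and -1.33 without library 9), and plakophilin 1, Pkp1, was the exception at 24.9 and 16.6 CPM against 34.5 and 27.9 CPM (log2 fold change 0.59, 0.92 without library 7 and 0.32 without library 8). Without library 10 the median was -0.27 for the desmosome list and -0.11 for the hemidesmosome set, and without library 7 it was -0.29 and -0.49.

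Cd151 belongs to the tetraspanins, and 9 others were listed. None passed the threshold in the edgeR QL test, and 6 had an unadjusted p under 0.05, with 5 negative and 4 positive log2 fold changes. The largest differences were those of Cd37 and Cd53, tetraspanins of leukocytes, at 1.05, 1.49, 5.96 and 70.1 CPM and at 1.42, 3.70, 10.7 and 57.6 CPM in libraries 7 to 10. Both were highest in library 10, as the B cell markers were, and both were called higher by DESeq2, by the likelihood ratio test and without a filter. Trp73 had 0, 2, 3 and 5 counts, so Trp63 and Trp73, the relatives of p53, stayed at 5 counts or fewer in every library.

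**Figure D5:**
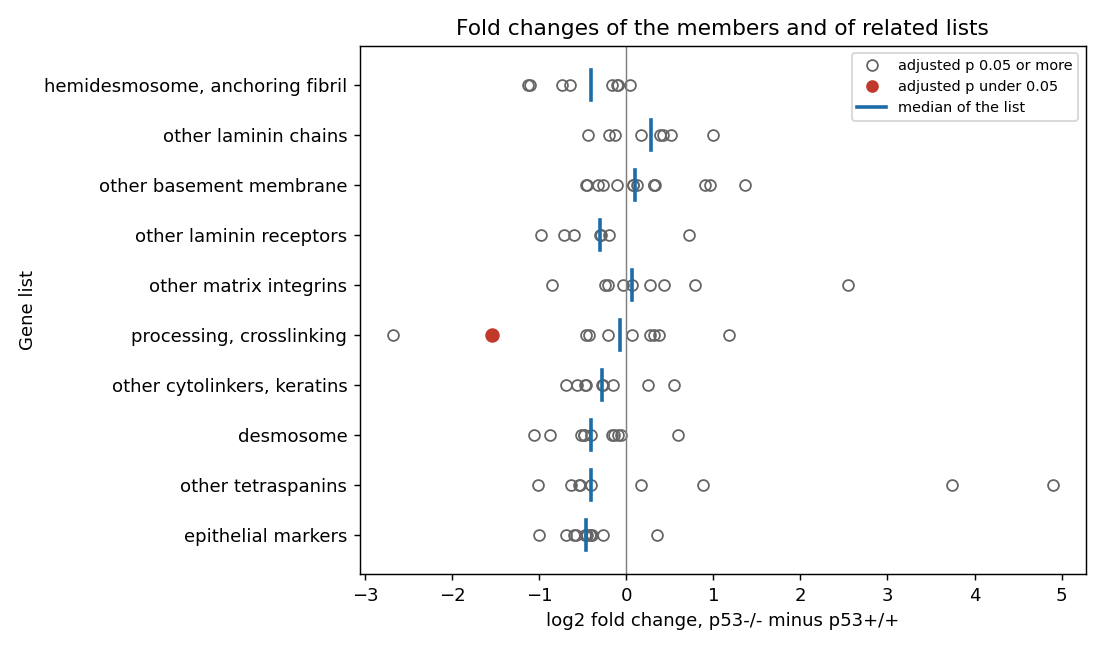
Log2 fold change of p53-/- against p53+/+ for each gene tested in 10 lists, with open circles for an adjusted p of 0.05 or more, a filled circle for one under it, and a blue bar for the median of a list. Bmp1 is the single filled circle, and the medians of the hemidesmosome set, the desmosome and the epithelial markers lie at -0.41, -0.41 and -0.46.

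Reads of some members could have been shared with overlapping genes. For genes on the opposite strand this depends on the strand setting of the counting, which is not given in the sources used here. Parp10 overlaps 205 exonic bases of Plec on the same strand and had 534 to 967 counts against 13057 to 21894 for Plec. Antisense transcripts overlap 193 exonic bases of Cd151 and 197 of Lama3, and they had 9 to 19 and 1 to 5 counts. A noncoding RNA on the opposite strand overlaps 537 exonic bases of Itgb4, or 7.66% of them. Its identifier was not among those of the count table, so it had no counts to compare. For Dst, an overlap of 1037 bases on the opposite strand had 0 to 4 counts.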

How the data were processed

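RNA from the SI of p53+/+ and p53-/- mice, with 2 libraries of each genotype, was purified with poly-T beads before library construction. The table the authors deposited holds unnormalized counts, one value per gene and library, for 56748 genes. The submitters' processing notes name fastp, HISAT2 2.0.5, featureCounts 1.5.0-p3 and DESeq2 1.20.0. The genome build, annotation and strand setting are not given in the sources used here.

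Counts were filtered with filterByExpr, scaled by TMM and tested two-sided with the quasi-likelihood test of edgeR 4.0.16 in R 4.3.3, with Benjamini-Hochberg adjustment over 16094 genes at a threshold of 0.05. CPM used TMM-scaled library sizes, and profiles a prior count of 2. Exon lengths came from GENCODE M21, which holds 91.9% of the deposited identifiers and all 9 members. The scripts were tested on simulated data. The members and lists were chosen with earlier results of these data known. Named genes were all members, Trp53, list genes past the threshold, the 2 largest changes per list (minimum average log2 CPM 1), and the 3 nearest profiles to Itgb4, Lamb3 and Col7a1. A further list gene is not reported here. Alternatives were other scalings, filters and tests (DESeq2 1.42.0, the likelihood ratio test), abundant or immune receptor genes left out, and each library left out. The number of counts limits the precision of Col7a1 and Col17a1 in particular. Libraries of 1 genotype differed by more than counting noise (chi-square per degree of freedom 50.8 and 78.5). The study's methods describe its n values in general as biological replicates. The labels do not say that each library was a separate animal, so p-values measure the spread between these libraries, which may be technical.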

Additional observations from a re-analysis of the deposited data

How the results depend on the processing

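Itgb4, Lama3, Lamb3 and Cd151 were negative under each of 14 alternatives, and 105 of 112 member values kept their sign. For these genes both p53-/- libraries lay below both p53+/+ libraries, so leaving out 1 library could hardly change the sign. The other alternatives used the same libraries. The kept signs thus restate that separation and add no support to it. The count of members called lower rose from 0 to 3 with DESeq2, 2 with the likelihood ratio test and 3 without a filter on low counts. Without that filter the median of all genes was 0.15 and that of the members -0.12. The latter was taken over all 9 members, since Col17a1 entered. Plec itself was at -0.12 without the filter and at -0.17 with it. With 1 library left out, the log2 fold change ranged from -0.40 to 0.25 for Col7a1, -0.40 to 0.21 for Itga6, -0.48 to 0.14 for Plec, -0.12 to 0.23 for Dst, -0.25 to 2.34 for Lama2, -1.14 to 1.02 for Lamb2, -1.71 to 0.63 for Itga7 and -1.71 to 1.59 for Itga5, and the members' median was -0.11 without library 10. Over all genes, 48 higher and 31 lower became 26 and 20 when only library size was used, 29 and 20 for upper-quartile scaling, 812 and 663 with DESeq2, 833 and 462 with the likelihood ratio test, 1433 and 761 without a filter, 24 and 18 with at least 10 counts in every library, and 0 to 680 and 0 to 344 with 1 library left out, the 0 without library 10 and the 680 and 344 without library 8. In the 9 other lists, Trp53 included, 0 higher and 1 lower became 3 and 7 with DESeq2, 3 and 4 with the likelihood ratio test, 4 and 6 without a filter, 0 to 16 and 0 to 6 with 1 library left out (16 without library 8, 6 without library 7), and 0 lower with library size only, RLE or upper-quartile factors, at least 10 counts, the 50 most abundant genes left out, or the 18S gene left out, an alternative chosen after seeing the data. Leaving out immunoglobulin and T cell receptor segments gave 2 lower, Bmp1 and Plod2. The cause of these moves was not tested, beyond the entry of Col17a1 given above. No paired analysis was possible because the columns carry no replicate number of the labels.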
